A study of Mus musculus with 16 samples.

Results

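Lymphatic endothelial cells (LECs) of wild-type (WT) mouse lymph nodes were compared 1 day after ovalbumin (OVA) in Freund's adjuvant was injected into the footpad with LECs of WT mice at steady state. These are 8 of the 16 RNA sequencing libraries of the series, all 4 labelled WT inflamed and all 4 labelled WT, and they were chosen by their labels. The other 8 libraries come from Stab1-/- mice, which lack the scavenger receptor Clever-1 and are called KO here, 4 at steady state and 4 injected in the same way. LECs were sorted as live CD45- CD31+ podoplanin+ cells from digested popliteal and brachial lymph nodes, after CD45+ leukocytes had been depleted with beads, and each library held cells pooled from a pair of mice. The adjuvant is complete Freund's adjuvant in the labels and incomplete in the methods of the study. The strain is C57BL/6 in the labels, whereas the methods give a mixed C57BL/6N and 129SvJ background, young adult mice and both sexes. Steady-state WT mice had no injection of adjuvant alone as a control, so the effects of OVA and of the adjuvant cannot be told apart.

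Lymph node LECs line the sinuses through which lymph, antigen and migrating dendritic cells pass. They take up particles through scavenger and lectin receptors, hold and break down chemokines, and display antigen. After immunization the node swells, interferons and inflammatory cytokines are released into it, and LECs are known to enter the cell cycle in the following days. Interferons act through the factors that bind ISRE and GAS elements in promoters, and many inflammatory chemokines are targets of NF-kB.

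The deposited levels are TPM, a unit of transcript level in which reads are divided by transcript length and each library is scaled to the same total, so that the sequencing depth is unknown here. All changes are given on the log2(TPM + 1) scale, which understates the change of genes at low levels. A gene was tested, with limma, when 4 or more of the 8 libraries held it at 1 TPM or above, and it passed when its adjusted p did not exceed 0.05 and its log2 fold change lay at or beyond 1 in either direction. The libraries are separate pools in the labels, and p-values measure the spread between these pools.

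The library labelled WT inflamed replicate 2 stood apart. It held 10903 genes at 1 TPM or more, against 11903 to 12133 in the other 7 libraries. Its Pearson correlation with the other WT inflamed libraries, taken across genes and not across samples, was at most 0.906, while every other library had a partner in its own group at 0.987 or more. Long transcripts were low in it. Against the mean of WT, the median difference was -0.07 log2 units for transcripts of up to 1000 bases and -0.98 for those of 3000 to 5000 bases, whereas the other 3 WT inflamed libraries were at -0.05 to -0.04 and at 0.29 to 0.35 in the same classes. Leaving it out moved the median log2 fold change of all tested genes from -0.03 to 0.17, so every comparison below is given with it and, where it matters, without it. What set this library apart was not tested.

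**Figure D1:**
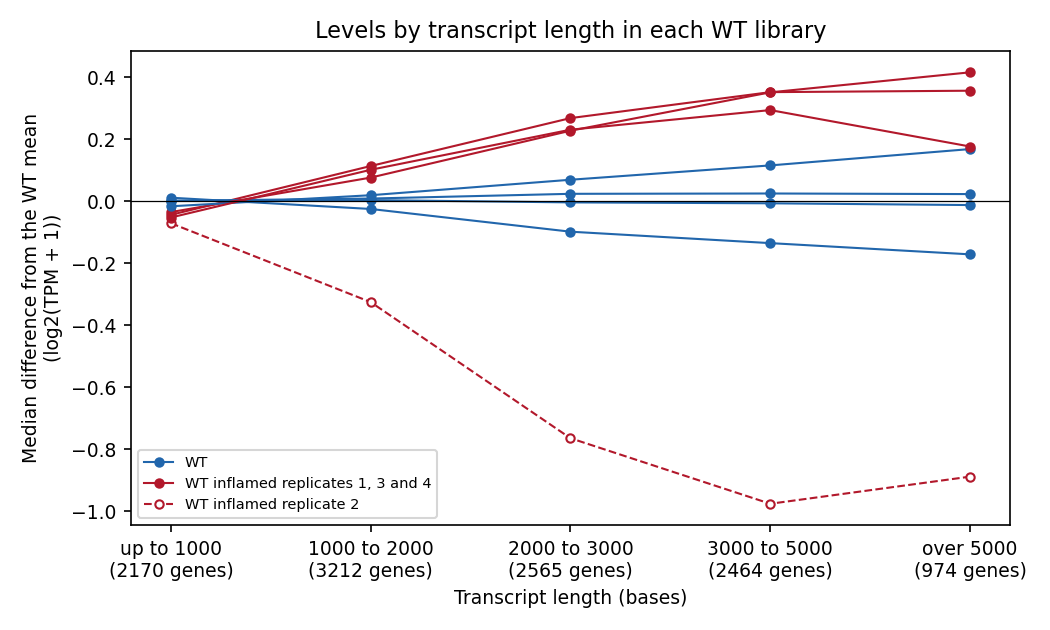
The x axis gives classes of transcript length in bases with the number of tested genes, and the y axis the median difference of log2(TPM + 1) from the mean of the 4 WT libraries, with 1 line per library. The dashed line is WT inflamed replicate 2, which falls to -0.98 at 3000 to 5000 bases, while the other 3 WT inflamed libraries lie between 0.29 and 0.35 there.

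Among the 12031 genes tested, 239 were higher and 237 lower 1 day after OVA, that is 1.99% and 1.97% of the genes tested. The WT and WT inflamed libraries did not overlap for 238 of the 239 and for 237 of the 237. Over all genes tested they did not overlap for 5.24% (inflamed higher) and 8.81% (inflamed lower). The called genes were chosen from these same values, so their separation is no further support for the calls. A gene under 1 TPM in all 4 libraries of 1 group was tested only through the other group, and its groups could not overlap. Without WT inflamed replicate 2, 697 genes were higher and 355 lower among 11936 tested, 5.84% and 2.97%. Of the 239 genes, 200 passed again, 7 were tested again and kept their sign without passing, and 32 no longer reached 1 TPM in 4 libraries and were not tested. Of the 237 genes, 210 passed again and the other 27 kept their sign. The split between rises and falls depended on the scaling. Higher genes made up 50.2% of the calls as deposited, 61.1% after rescaling each library by its median ratio to a common reference (339 higher, 216 lower), 66.3% without WT inflamed replicate 2 and 45.9% with both changes (458 higher, 540 lower). There were 178 higher and 164 lower genes that passed in all 4 of these settings. Leaving out any 1 of the other 7 libraries gave 109 to 134 higher and 98 to 168 lower genes.

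**Figure D2:**
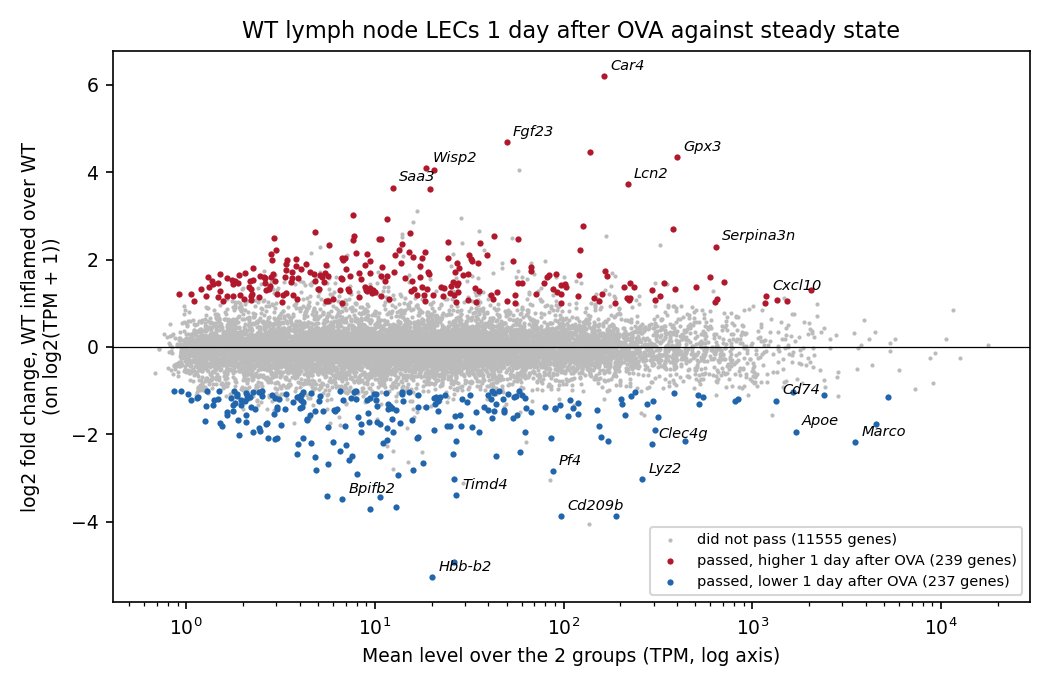
Each point is 1 of the 12031 tested genes, with its mean level over both groups in TPM on a log axis and its log2 fold change (WT inflamed over WT) on the y axis. The 239 genes that passed higher are red, the 237 that passed lower are blue, and the highest point is Car4 at 6.21.

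Car4, which encodes the membrane-anchored carbonic anhydrase 4 (chr11:84957754-84966054, mm10), had the highest log2 fold change of all genes tested. Its levels were 1.35, 5.61, 1.22 and 9.36 TPM in the WT libraries and 303, 302, 303 and 381 TPM in the WT inflamed libraries, a 73.5-fold difference of the means (log2 fold change 6.21 ± 0.47 (SE), limma adjusted p = 3.23e-04). Every inflamed library lay above every WT library by a wide margin, and WT inflamed replicate 2 was level with replicates 1 and 3. Fgf23, a hormone gene best known for lowering blood phosphate (chr6:127072902-127082296), stood at 2.63, 2.23, 2.29 and 3.7 TPM in the WT libraries and 85.9, 59.4, 126 and 118 TPM in the WT inflamed libraries (log2 fold change 4.68 ± 0.27 (SE), limma adjusted p = 5.63e-05). Gpx3, the secreted glutathione peroxidase (chr11:54902854-54910387), was at 55.1, 37.2, 25.5 and 26.1 TPM in the WT libraries and 687, 1112, 419 and 831 TPM in the WT inflamed libraries (log2 fold change 4.35 ± 0.33 (SE), limma adjusted p = 3.23e-04). Neither gene's groups overlapped, and the lowest inflamed library of each was several-fold above its highest WT library. Wisp2, a matricellular protein of the CCN family, had the narrowest spread of these, 0.849, 1.36, 1.04 and 1.47 TPM in the WT libraries and 40.4, 36.8, 33.6 and 34.3 TPM in the WT inflamed libraries (log2 fold change 4.10 ± 0.20 (SE), limma adjusted p = 4.87e-05).

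Other genes among the 15 highest encode proteins of several kinds. Wfdc17, a small secreted protein with a whey acidic protein domain, was at 11.2, 8.71, 8.73 and 9.12 TPM in the WT libraries and 146, 553, 159 and 216 TPM in the WT inflamed libraries (log2 fold change 4.47 ± 0.38 (SE), limma adjusted p = 6.51e-04), and here WT inflamed replicate 2 was the highest library. Ms4a6d, a membrane-spanning protein, went from 2.03 ± 0.341 TPM to 37.3 ± 9.52 TPM (mean ± SD, n = 4 each; log2 fold change 3.63). Ctla2a, which encodes a cysteine protease inhibitor, went from 100.3 ± 9.41 to 660.4 ± 77 TPM (log2 fold change 2.70, limma adjusted p = 5.20e-05), though reads of its close copy Ctla2b may be split with it. Crybb3, a beta crystallin first described in the lens, rose from 1.85 ± 0.386 to 21.4 ± 7.58 TPM, and Sh2d5, an SH2 domain adaptor, from 0.497 ± 0.302 to 9.08 ± 4.47 TPM. Sh2d5 was under 1 TPM in all WT libraries and was tested only through the inflamed libraries, so its groups could not overlap. Ifi205, an interferon-inducible gene of the p200 family, was at 0.61, 1.13, 2.53 and 1.25 TPM in the WT libraries and 23.8, 4.56, 15.5 and 12.8 TPM in the WT inflamed libraries (log2 fold change 2.54 ± 0.45 (SE), limma adjusted p = 0.0125), and its call was lost without WT replicate 1 or 2 (adjusted p up to 0.0584). Ifi205 also has near copies on chromosome 1 that may share its reads. The other genes of the 15 (Itih4, Lcn2, Saa3, Ccl20 and Rrm2) are described with their groups.

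**Figure D3:**
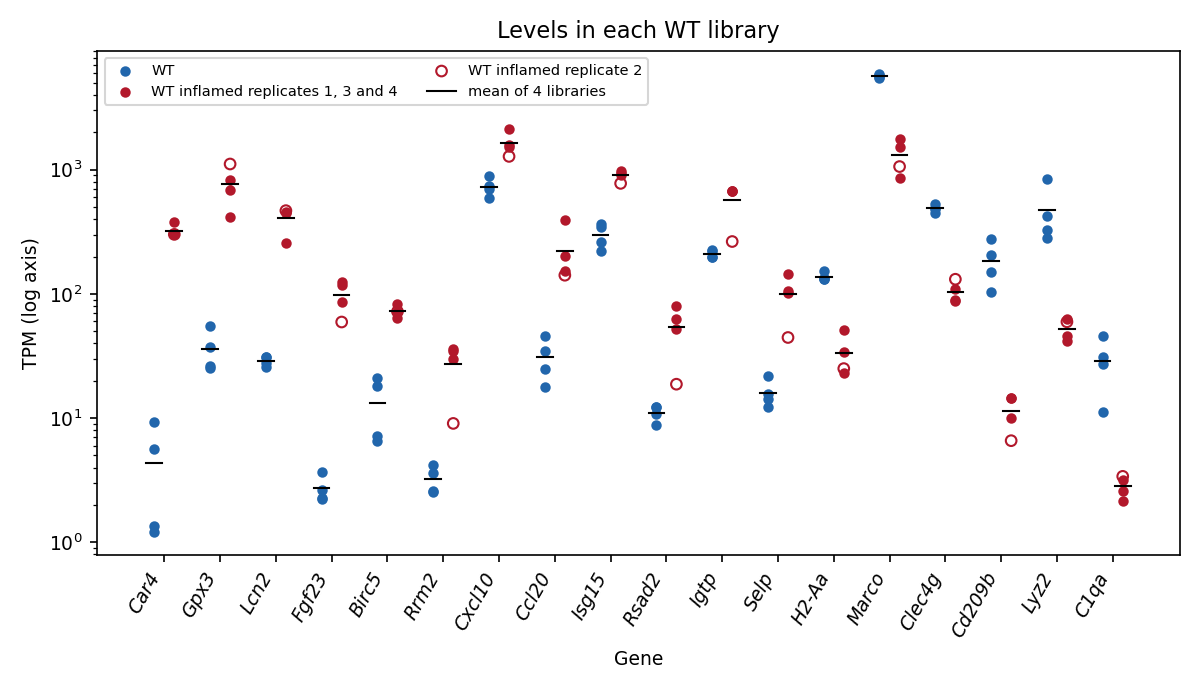
Levels in TPM on a log axis of 18 genes in each of the 8 libraries, with WT in blue, WT inflamed replicates 1, 3 and 4 as filled red points, WT inflamed replicate 2 as an open red circle and the mean of 4 libraries as a bar. The groups do not overlap for any of the 18 genes, and WT inflamed replicate 2 lies close to the WT level for Igtp and Rsad2 (264 and 18.8 TPM).

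The promoters of 4 genes are printed, each from a group of genes that is described in turn. Igtp and Rsad2 are from the interferon-stimulated genes, Ccl20 from the CC chemokines and Itih4 from the acute phase genes. Each is the RefSeq window of 300 bases on GRCm38.p6 (250 before the start site and 50 after it), 5′ to 3′, with capitals for every match to one of the motifs searched on both strands: ISRE (GAAA, any 2 bases, GAAA), GAS (TTC, any 3 bases, GAA), kB (GGG, any 2 bases, TTTCC), CHR (TTTGAA) and CCAAT. Igtp lies at chr11:58199306-58199605, plus strand, Rsad2 at chr12:26456403-26456702, minus strand, Ccl20 at chr1:83116516-83116815, plus strand and Itih4 at chr14:30886226-30886525, plus strand.
Igtp: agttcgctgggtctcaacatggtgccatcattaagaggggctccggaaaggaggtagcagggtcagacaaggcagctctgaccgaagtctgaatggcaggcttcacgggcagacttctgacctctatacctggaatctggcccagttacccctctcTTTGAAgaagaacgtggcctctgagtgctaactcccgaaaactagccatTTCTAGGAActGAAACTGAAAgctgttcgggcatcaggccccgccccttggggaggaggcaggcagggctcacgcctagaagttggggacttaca
Rsad2: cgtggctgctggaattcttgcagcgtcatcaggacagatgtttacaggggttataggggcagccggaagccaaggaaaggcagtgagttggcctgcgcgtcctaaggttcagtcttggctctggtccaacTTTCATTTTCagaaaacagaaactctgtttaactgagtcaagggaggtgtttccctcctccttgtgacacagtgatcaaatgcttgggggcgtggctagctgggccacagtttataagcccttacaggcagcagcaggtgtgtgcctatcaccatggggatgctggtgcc
Ccl20: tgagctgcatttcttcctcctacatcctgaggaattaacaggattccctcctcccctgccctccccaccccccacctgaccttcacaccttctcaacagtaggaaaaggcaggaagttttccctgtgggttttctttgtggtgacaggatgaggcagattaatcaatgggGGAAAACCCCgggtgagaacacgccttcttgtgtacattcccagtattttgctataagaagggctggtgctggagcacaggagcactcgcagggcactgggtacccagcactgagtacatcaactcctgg
Itih4: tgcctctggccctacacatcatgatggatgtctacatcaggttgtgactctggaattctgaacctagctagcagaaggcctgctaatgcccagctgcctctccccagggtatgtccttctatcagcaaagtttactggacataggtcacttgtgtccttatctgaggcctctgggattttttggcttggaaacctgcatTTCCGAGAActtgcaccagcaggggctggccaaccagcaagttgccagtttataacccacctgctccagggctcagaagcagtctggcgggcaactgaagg
The Igtp window held an ISRE match starting 34 bases before the start site, a GAS match starting 45 bases and a CHR match starting 94 bases before it. The Rsad2 window held an ISRE match starting 120 bases before the start site, on the minus strand of the gene. The Ccl20 window held a kB match starting 80 bases before the start site, on the minus strand of the gene, and the Itih4 window a GAS match starting 51 bases before it. The windows of the leading CXC chemokine and mitosis genes were searched too and are not printed. Cxcl9 held 1 CCAAT match and no ISRE, GAS or kB match. Birc5 held 1 kB match and no CHR or CCAAT match. The 4 printed windows therefore do not stand for all windows searched. Over all 27025 genes with a window in the table, 3.49% held an ISRE match, 8.47% a GAS match, 1.62% a kB match, 18.1% a CHR match and 37.9% a CCAAT match. Only 75.7% of the higher and 73% of the lower genes had a window, so a count of motifs over the called genes would be void and none is given.

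Of 17 tested acute phase and iron handling genes, 4 passed higher (Lcn2, Saa3, Itih4 and Lbp) and 0 lower, beside 1.99% of all genes higher, and the median of the list was 0.64 beside -0.03 over all genes. Lcn2 encodes lipocalin-2, which keeps iron from bacteria by binding their siderophores (chr2:32384637-32387739). It was at 30.8, 28, 25.9 and 31 TPM in the WT libraries and 460.2, 468, 449 and 256 TPM in the WT inflamed libraries, 14.1-fold on the means (log2 fold change 3.73 ± 0.21 (SE), limma adjusted p = 5.63e-05). The 4 WT libraries lay close together, and WT inflamed replicate 4 was the lowest inflamed library, still far above them. Itih4, a plasma protein of the inter-alpha-trypsin inhibitor family (chr14:30886476-30901986), was at 1.18, 1.19, 0.753 and 2.13 TPM in the WT libraries and 34.2, 18.6, 46 and 60.3 TPM in the WT inflamed libraries (log2 fold change 4.05 ± 0.36 (SE), limma adjusted p = 7.17e-04), and its groups were far apart. Saa3, an extrahepatic serum amyloid A, was at 0.677, 0.623, 0.522 and 1.88 TPM in the WT libraries and 24.2, 30.9, 11 and 29.6 TPM in the WT inflamed libraries (log2 fold change 3.65 ± 0.36 (SE), limma adjusted p = 9.60e-04). Lbp, which binds bacterial lipopolysaccharide and hands it to CD14, was at 317, 433, 424 and 330.2 TPM in the WT libraries and 1150.4, 915, 1238 and 891 TPM in the WT inflamed libraries (log2 fold change 1.48 ± 0.17 (SE), limma adjusted p = 0.00211). These 4 genes passed in every alternative tried, with adjusted p of at most 0.0143 when a library was left out. The other 13 did not pass, and the summed level of all 23 listed genes in the table was 27473 to 30469 TPM in WT and 20050.0 to 41459 TPM in WT inflamed libraries. The ferritin chains Fth1 and Ftl1, far more abundant, did not pass. Fth1 was at 17072 ± 703 and 18540.3 ± 7261 TPM, and Ftl1 at 11481, 11194, 12108 and 10636 TPM in the WT libraries and 4776, 10610.5, 5592 and 5981 TPM in the WT inflamed libraries. WT inflamed replicate 2 was at the WT level for Ftl1, and without it Ftl1 passed lower (log2 fold change -1.06, limma adjusted p = 1.85e-05). Without that library 8 members passed higher and 1 lower, beside 5.84% and 2.97% of all genes. Lcn2 is also a gene of neutrophil granules. The summed level of the 17 neutrophil and granule markers was 191 to 215 TPM in WT and 418 to 631 TPM in WT inflamed libraries, of which Lcn2 alone gave 256 to 468 TPM in the inflamed libraries, and the granule genes Ngp, Camp, Elane and Mpo were listed at 0 in all 4 of them. S100a8, a calcium-binding protein of neutrophils and monocytes, was at 20.7, 12.3, 6.99 and 2.46 TPM in the WT libraries and 1.24, 9.59, 12.2 and 4.12 TPM in the WT inflamed libraries, and its groups overlapped.

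In the list of plasminogen and coagulation genes, 3 of 18 tested members passed higher and 0 lower (median 0.31), beside 1.99% and 1.97% of all genes. Serpina3n, an inhibitor of granzyme B and cathepsin G (chr12:104406646-104414334), was at 190.5, 210.4, 241 and 204 TPM in the WT libraries and 1242, 656, 1156 and 1247 TPM in the WT inflamed libraries (log2 fold change 2.30 ± 0.22 (SE), limma adjusted p = 9.10e-04), and it was among the 5 genes with the largest rise in TPM. Plaur, the receptor of urokinase, was at 40, 44.5, 40.1 and 36.6 TPM in the WT libraries and 130.1, 133, 128 and 119 TPM in the WT inflamed libraries (log2 fold change 1.64 ± 0.14 (SE), limma adjusted p = 5.99e-04), with little spread in either group. The Serpina3n paralogs Serpina3g and Serpina3f did not pass (2024 ± 72.7 against 2615 ± 582 TPM and 763 ± 33.3 against 898 ± 253 TPM), and reads may be shared within this gene cluster. Of matrix proteases and their inhibitors 3 of 16 tested passed higher (median 0.68), and 9 did without WT inflamed replicate 2, where 5.84% of all genes were higher. Timp1, an inhibitor of metalloproteinases, was at 44, 40.2, 47 and 35.2 TPM in the WT libraries and 181, 285, 186 and 158 TPM in the WT inflamed libraries (log2 fold change 2.23 ± 0.20 (SE), limma adjusted p = 8.31e-04). Adamts5, an aggrecan-cleaving protease, was at 3.09, 2.26, 1.21 and 2.66 TPM in the WT libraries and 14.7, 9.1, 17.2 and 13.6 TPM in the WT inflamed libraries (log2 fold change 2.15 ± 0.28 (SE), limma adjusted p = 0.00301). Mmp14, a membrane-bound metalloproteinase, rose from 134 ± 9.85 to 300.4 ± 70.8 TPM (log2 fold change 1.13), a call lost without WT replicate 1 or 3 (adjusted p up to 0.0561). Timp3, at 503, 536, 425 and 640.3 TPM in the WT libraries and 1158, 216, 1042 and 1034 TPM in the WT inflamed libraries, shows how far WT inflamed replicate 2 could decide a value. The other 3 inflamed libraries lay above WT and this one below, so the gene did not pass (log2 fold change 0.47 ± 0.49 (SE), limma adjusted p = 0.773) but did without it (log2 fold change 1.05, limma adjusted p = 1.32e-04).

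Chemokine genes moved in different directions. Among inflammatory CC chemokines, 3 of 13 tested passed higher and 1 lower (median 0.38), beside 1.99% and 1.97% of all genes. Ccl20, the ligand of CCR6, was at 34.9, 17.7, 24.9 and 46 TPM in the WT libraries and 393, 141, 153 and 203 TPM in the WT inflamed libraries (log2 fold change 2.77 ± 0.38 (SE), limma adjusted p = 0.00397). WT inflamed replicate 1 was the highest, and the groups were well apart. Ccl2, which attracts monocytes through CCR2, was at 85.5, 87.1, 58.7 and 94.6 TPM in the WT libraries and 405, 247, 189 and 198 TPM in the WT inflamed libraries (log2 fold change 1.61 ± 0.26 (SE), limma adjusted p = 0.00872). Ccl9, a CCR1 ligand, was at 5.14, 3.86, 3.98 and 3.9 TPM in the WT libraries and 16, 14.7, 16.8 and 23.2 TPM in the WT inflamed libraries (log2 fold change 1.83 ± 0.22 (SE), limma adjusted p = 0.00228). These 3 CC chemokines passed in every alternative. Ccl7, another CCR2 ligand, was at 58.4 ± 5.91 and 109.7 ± 50.7 TPM and did not pass (limma adjusted p = 0.139). Ccl8 fell, with 27.4, 35.5, 56.2 and 30.1 TPM in the WT libraries and 19.9, 10.9, 7.0 and 5.1 TPM in the WT inflamed libraries (log2 fold change -1.81 ± 0.39 (SE), limma adjusted p = 0.0298), although this call was lost without any of WT replicates 1 to 4 or WT inflamed replicate 3 or 4 (adjusted p up to 0.102). Of inflammatory CXC chemokines 2 of 7 passed higher and 1 lower, beside the same shares of all genes. Cxcl10, a CXCR3 ligand that interferons induce, was at 698, 737, 595 and 885 TPM in the WT libraries and 2129, 1281, 1597 and 1537 TPM in the WT inflamed libraries (log2 fold change 1.16 ± 0.19 (SE), limma adjusted p = 0.00812) and was among the 5 genes with the largest rise in TPM. Cxcl9, another CXCR3 ligand, was at 18.6, 33.5, 23.4 and 40.4 TPM in the WT libraries and 156, 44.8, 101 and 119 TPM in the WT inflamed libraries (log2 fold change 1.75 ± 0.39 (SE), limma adjusted p = 0.0321), and WT inflamed replicate 2 was near the highest WT library. The Cxcl9 call was lost when any 1 library other than that one was left out (adjusted p up to 0.116). Cxcl1, a neutrophil attractant, was lower in every inflamed library (347, 276, 255 and 407 TPM in the WT libraries and 245, 119.9, 145 and 166 TPM in the WT inflamed libraries) and did not pass (log2 fold change -0.95 ± 0.24 (SE), limma adjusted p = 0.0548). Cxcl16 was at 181 ± 7.68 and 119 ± 28.6 TPM and did not pass. The lower gene of this list, Pf4, is a platelet and megakaryocyte chemokine and is given with the markers of other cells.

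Chemokine sinks of LECs behaved in unlike ways. Ackr4, which clears CCL19 and CCL21 in the subcapsular sinus, fell from 667, 827, 745 and 672 TPM to 515, 172, 286 and 291 TPM (log2 fold change -1.30 ± 0.29 (SE), limma adjusted p = 0.0315). Its call was lost without any of the 4 WT replicates or WT inflamed replicate 3 or 4 (adjusted p up to 0.109). Ackr2, which clears inflammatory CC chemokines, was at 230.1, 308, 195 and 208 TPM in the WT libraries and 544, 186, 631 and 578 TPM in the WT inflamed libraries. All WT libraries lay between WT inflamed replicate 2, which was below them, and the other 3, so that Ackr2 did not pass with all 8 libraries and passed without it (log2 fold change 1.33, limma adjusted p = 7.26e-05, against 0.228 with it).

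Cytokine genes gave few calls, 1 higher and 2 lower of 18 tested, beside 1.99% and 1.97% of all genes. Csf3, the granulocyte colony-stimulating factor, was at 8.63, 5.1, 7.62 and 5.39 TPM in the WT libraries and 63.4, 20.2, 39.3 and 46.2 TPM in the WT inflamed libraries (log2 fold change 2.41 ± 0.34 (SE), limma adjusted p = 0.00469), and its groups did not overlap. Ltb, the lymphotoxin beta chain, fell from 342, 293, 336 and 286 TPM to 89.5, 154, 78.3 and 115 TPM (log2 fold change -1.56 ± 0.21 (SE), limma adjusted p = 0.00397). Csf1, the macrophage colony-stimulating factor, was at 712, 772, 673 and 812 TPM in the WT libraries and 361, 191, 403 and 439.7 TPM in the WT inflamed libraries (log2 fold change -1.15 ± 0.25 (SE), limma adjusted p = 0.0284). Every inflamed library was lower, but the change was under the fold threshold without WT inflamed replicate 2 (log2 fold change -0.89) and the call was lost when any 1 library other than WT inflamed replicate 4 was left out (adjusted p up to 0.0998). Il33, an alarmin that LECs hold in the nucleus, was above the WT range in 3 inflamed libraries and below it in replicate 2 (519, 186, 702 and 807 TPM against 326, 307, 249 and 334 TPM), and it did not pass with all 8 libraries but did without that one (log2 fold change 1.13). Il1rn, the interleukin-1 receptor antagonist, was low but higher after OVA, with 0.211, 0.84, 0.462 and 0.153 TPM in the WT libraries and 4.04, 1.14, 3.2 and 4.49 TPM in the WT inflamed libraries (log2 fold change 1.51 ± 0.31 (SE), limma adjusted p = 0.0239). This call was lost without any of the WT replicates (adjusted p up to 0.0959), and the gene was not tested without WT inflamed replicate 2. Il1rn was under 1 TPM in all WT libraries and was tested only through the inflamed libraries, so its groups could not overlap. Among 23 NF-kB subunits and feedback inhibitors 0 passed with limma, with or without WT inflamed replicate 2, and 3 had an unadjusted p below 0.05 with all 8 libraries.

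Adhesion genes were led by Selp, which encodes P-selectin, a receptor that captures leukocytes on activated endothelium. Its levels were 21.7, 12.4, 15.7 and 14.3 TPM in the WT libraries and 144, 44.6, 106 and 101 TPM in the WT inflamed libraries (log2 fold change 2.47 ± 0.34 (SE), limma adjusted p = 0.0044), and the lowest inflamed library, replicate 2, was still above every WT library. Of 23 tested adhesion genes 3 passed higher and 1 lower (median 0.05), beside 1.99% and 1.97% of all genes. Mcam (CD146) rose from 12.5 ± 1.4 to 39.4 ± 14.2 TPM and Esam, a tight junction adhesion molecule, from 63.9 ± 14.3 to 129 ± 22.9 TPM. Mcam lost its call when any 1 library other than WT inflamed replicate 2 was left out (adjusted p up to 0.0958), and Esam lost its call without that library (log2 fold change 0.98), after median-ratio rescaling (log2 fold change 1.05, adjusted p = 0.0713), and without WT replicate 1, 2 or 4 or WT inflamed replicate 1 or 3. F11r and Jam3, abundant junctional molecules, did not pass (800.4 ± 53.8 against 1030.3 ± 319 TPM and 1501 ± 225 against 893 ± 265 TPM).

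How many interferon-stimulated genes passed depended on WT inflamed replicate 2. Of 40 tested type I interferon-stimulated genes, 39 had a log2 fold change above 0, beside 46.8% of all genes. Of the 40, 10 passed higher, beside 1.99% of all genes, and the median was 1.18. Without that library 34 passed, beside 5.84% of all genes, and the median was 1.61, beside 0.17 over all genes. Of 19 tested members of the guanylate-binding and immunity-related GTPases, which interferon-gamma induces against intracellular pathogens, all were above 0 and only Igtp passed (median 1.20). Without WT inflamed replicate 2, 18 of the 19 passed (median 1.78). After median-ratio rescaling of all 8 libraries, 20 of the 40 and 6 of the 19 passed higher, beside 339 of all 12031 genes tested. These GTPases form tandem clusters of similar genes that may share reads.

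Of the members of these interferon lists described here, Isg15, a ubiquitin-like modifier, alone passed in every alternative. It was at 262, 348, 368 and 221 TPM in the WT libraries and 899, 777, 974 and 948 TPM in the WT inflamed libraries (log2 fold change 1.61 ± 0.18 (SE), limma adjusted p = 0.00209), and all 4 inflamed libraries were close to each other. Rsad2 (viperin), which blocks virus budding and replication, was at 10.8, 12.3, 12.3 and 8.8 TPM in the WT libraries and 80.6, 18.8, 63.2 and 52.6 TPM in the WT inflamed libraries (log2 fold change 2.02 ± 0.40 (SE), limma adjusted p = 0.021). The second inflamed library stood just above the WT range and the other 3 several-fold above it. Ifit1, which binds foreign RNA ends, showed the same order of libraries (10.4, 12.1, 11.7 and 10.8 TPM in the WT libraries and 71.9, 15.9, 65.3 and 62.6 TPM in the WT inflamed libraries; log2 fold change 1.97, and 2.46 without replicate 2). Mx1, a dynamin-like antiviral GTPase, was at 12.5, 12.4, 17.6 and 9.33 TPM in the WT libraries and 81, 18.7, 75.5 and 56.2 TPM in the WT inflamed libraries (log2 fold change 1.92, and 2.38 without replicate 2). All 3 genes had WT inflamed replicate 2 nearest to WT. Oas1g, an oligoadenylate synthetase with near copies in its cluster, was at 9.97, 15.8, 13.4 and 7.62 TPM in the WT libraries and 53.9, 23.8, 48.2 and 49.9 TPM in the WT inflamed libraries (log2 fold change 1.80 ± 0.31 (SE), limma adjusted p = 0.012). Igtp (chr11:58199556-58207592) was at 199, 227, 222 and 197 TPM in the WT libraries and 674, 264, 677 and 674 TPM in the WT inflamed libraries (log2 fold change 1.34 ± 0.29 (SE), limma adjusted p = 0.0321), and 1.67 without replicate 2 (limma adjusted p = 8.13e-07). Rsad2, Ifit1, Mx1 and Igtp lost their calls when any 1 library other than WT inflamed replicate 2 was left out (adjusted p up to 0.122), and Oas1g without WT replicate 1 (adjusted p = 0.0581). Tgtp2, another abundant GTPase, was at 230.0, 206, 191 and 248 TPM in the WT libraries and 709, 142, 551 and 597 TPM in the WT inflamed libraries, and Ifi47 at 266 ± 8.49 against 524 ± 171 TPM. Both did not pass with all 8 libraries and passed without WT inflamed replicate 2 (log2 fold changes 1.50 and 1.18).

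Of 24 tested mitosis genes 15 passed higher and 0 lower (median 1.65), and of 28 tested genes of DNA replication and nucleotide supply 12 passed higher and 0 lower (median 1.04), beside 1.99% of all genes. Without WT inflamed replicate 2 the counts were 21 and 22, beside 5.84% of all genes. Birc5 (survivin), a subunit of the chromosomal passenger complex, was at 7.15, 18.1, 21.1 and 6.58 TPM in the WT libraries and 83.4, 72.1, 64 and 71.7 TPM in the WT inflamed libraries (log2 fold change 2.53 ± 0.36 (SE), limma adjusted p = 0.0047), and WT inflamed replicate 2 was among the others. Aurkb, the kinase of that complex, was at 2.15, 4.1, 2.18 and 1.56 TPM in the WT libraries and 21, 11.7, 16.8 and 24.6 TPM in the WT inflamed libraries (log2 fold change 2.48 ± 0.30 (SE), limma adjusted p = 0.00231). For neither gene did the groups overlap. Cdk1, the kinase that starts mitosis, rose from 2.78 ± 1.01 to 15.4 ± 3.39 TPM and Ube2c, the ubiquitin-conjugating enzyme of the anaphase-promoting complex, from 14.4 ± 4.31 to 64.2 ± 10.1 TPM (limma adjusted p = 0.00305 and 0.00211). Ndc80, a kinetochore protein, was at 0.849, 1.81, 0.399 and 1.28 TPM in the WT libraries and 13.1, 3.06, 10.6 and 14.8 TPM in the WT inflamed libraries (log2 fold change 2.33 ± 0.43 (SE), limma adjusted p = 0.0157), and replicate 2 was the nearest to WT. The replication genes follow. Rrm2, the subunit of ribonucleotide reductase that limits the supply of deoxynucleotides, was at 2.58, 4.17, 3.63 and 2.56 TPM in the WT libraries and 36.2, 9.06, 29.8 and 34.8 TPM in the WT inflamed libraries (log2 fold change 2.60 ± 0.41 (SE), limma adjusted p = 0.00795). Cdc45, a part of the replicative helicase, was at 4.45, 4.35, 4.51 and 2.94 TPM in the WT libraries and 24.3, 16.2, 23.8 and 26.7 TPM in the WT inflamed libraries (log2 fold change 2.22 ± 0.23 (SE), limma adjusted p = 0.00128), and Tk1, thymidine kinase, rose from 11.3 ± 1.81 to 51.7 ± 8.7 TPM (log2 fold change 2.10). Ccne1, cyclin E1, rose from 1.21 ± 0.466 to 7.38 ± 2.48 TPM and Uhrf1, which carries DNA methylation through replication, from 4.5 ± 1.11 to 22.8 ± 12.9 TPM. Top2a, topoisomerase II alpha, was one of the 6 passing genes that moved most without WT inflamed replicate 2, with 3.3, 3.62, 3.06 and 4.16 TPM in the WT libraries and 32.3, 5.13, 23.6 and 27.5 TPM in the WT inflamed libraries (log2 fold change 2.11 with and 2.66 without it). Uhrf1 and Top2a lost their calls when any 1 of the other 7 libraries was left out (adjusted p up to 0.13), and Ndc80 without 6 of them (all but WT replicate 2, adjusted p up to 0.0692), whereas Birc5, Aurkb, Cdk1, Ube2c, Rrm2, Cdc45 and Tk1 passed in every alternative. Of 19 tested cell cycle regulators 0 passed with limma and 8 had an unadjusted p below 0.05. Cdk4, the kinase that cyclin D drives, was at 367 ± 13.8 and 355 ± 31.9 TPM.

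**Figure D4:**
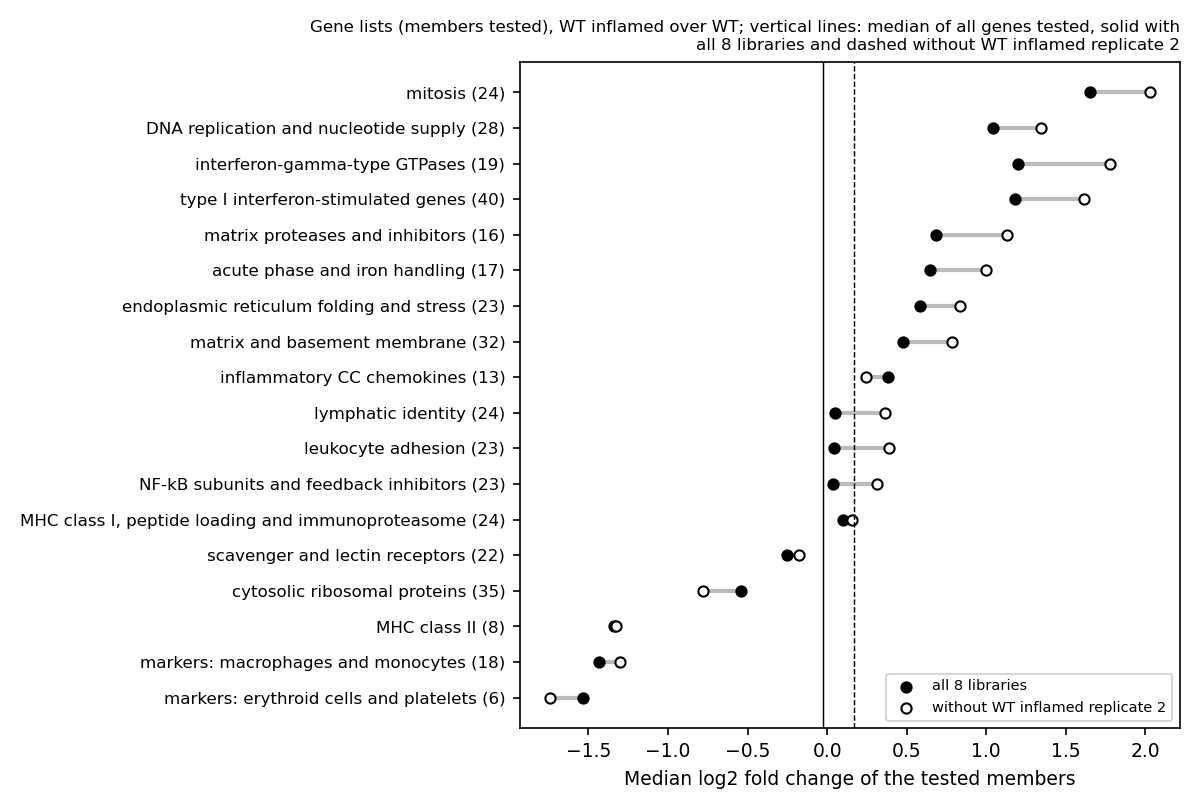
Each row is a gene list with the number of its tested members, and the x axis gives the median log2 fold change of those members (WT inflamed over WT), filled with all 8 libraries and open without WT inflamed replicate 2. The vertical lines are the medians of all tested genes, -0.03 and 0.17, and the mitosis list lies highest at 1.65 with all 8 libraries.

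Genes of protein folding, amino acid supply and the matrix gave fewer calls with all 8 libraries than without WT inflamed replicate 2. Of 23 endoplasmic reticulum genes 2 passed higher, beside 1.99% of all genes, and 8 without it, beside 5.84%. Sdf2l1, a co-factor of the chaperone BiP, was at 50.4, 52, 56.1 and 47.6 TPM in the WT libraries and 119.7, 191, 112 and 145 TPM in the WT inflamed libraries (log2 fold change 1.42 ± 0.19 (SE), limma adjusted p = 0.00372). Pdia6, a disulfide isomerase, rose from 399.9 ± 34.4 to 895 ± 294 TPM (limma adjusted p = 0.0433), a call lost when any 1 library other than WT inflamed replicate 2 was left out (adjusted p up to 0.15). Hspa5, which encodes BiP, was at 798, 887, 801 and 914 TPM in the WT libraries and 2727, 708, 2353 and 2628 TPM in the WT inflamed libraries. Its 3 high inflamed libraries and the low replicate 2 gave no call (log2 fold change 1.13 ± 0.39 (SE), limma adjusted p = 0.153), against a log2 fold change of 1.59 and an adjusted p of 1.30e-06 without that library. Calr, calreticulin, was at 1620.4, 1728, 1669 and 1557 TPM in the WT libraries and 3060.0, 1619, 3137 and 3289 TPM in the WT inflamed libraries and did not pass. Of 24 amino acid transport and ATF4 target genes 3 passed higher, beside 1.99% of all genes. Mthfd2, a mitochondrial folate enzyme, was at 2.33, 3.21, 3.55 and 2.82 TPM in the WT libraries and 23.1, 6.72, 15.4 and 13.6 TPM in the WT inflamed libraries (log2 fold change 1.88 ± 0.33 (SE), limma adjusted p = 0.0131), while Asns, asparagine synthetase, rose from 10.9 ± 3.55 to 25.7 ± 5.59 TPM and Psat1, of serine synthesis, from 13.5 ± 2.98 to 32.3 ± 10 TPM. Mthfd2 lost its call without WT replicate 1 or 4, Asns without 6 libraries (all but WT replicate 4 and WT inflamed replicate 2) and Psat1 without any of the 7 libraries other than WT inflamed replicate 2 (adjusted p up to 0.133). Atf4 itself was at 484 ± 36.6 and 477 ± 43.4 TPM. Of 32 matrix and basement membrane genes only Col4a2, a collagen IV chain, passed (25.7, 29.7, 30.5 and 26.2 TPM in the WT libraries and 81.2, 36.9, 119 and 108 TPM in the WT inflamed libraries; log2 fold change 1.46), and it lost its call when any 1 library other than WT inflamed replicate 2 was left out (adjusted p up to 0.128). Without that library 12 of them passed higher, beside 5.84% of all genes, among them Nid1, which links laminin and collagen IV, at 122, 159.5, 105 and 171 TPM in the WT libraries and 528, 100.2, 687 and 574 TPM in the WT inflamed libraries, and Tnc, tenascin C, at 558, 586, 501 and 578 TPM in the WT libraries and 972, 219.9, 1531 and 1334 TPM in the WT inflamed libraries.

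The genes that mark LECs, and the markers used in the sort, did not pass. Of 24 lymphatic identity genes 0 passed with limma and 4 had an unadjusted p below 0.05 (median 0.05). Without WT inflamed replicate 2, 4 were higher and 0 lower, beside 5.84% and 2.97% of all genes. Prox1, the transcription factor that sets lymphatic fate, was at 68.2, 65.1, 54.4 and 86.8 TPM in the WT libraries and 95.3, 16.8, 90.7 and 82.2 TPM in the WT inflamed libraries. Flt4, the receptor VEGFR-3, was at 231, 256, 210.1 and 239 TPM in the WT libraries and 365, 152, 559 and 441 TPM in the WT inflamed libraries. Lyve1, the hyaluronan receptor of LECs, was at 1517, 1387, 1131 and 1719.7 TPM in the WT libraries and 3115, 1466, 3618 and 3711 TPM in the WT inflamed libraries. WT inflamed replicate 2 was the lowest inflamed library for all 3 and the other 3 inflamed libraries lay above most or all WT libraries. Lyve1 passed without it (log2 fold change 1.29, limma adjusted p = 5.48e-05), and Flt4 and Prox1 did not (0.94 and 0.39). Stab1, which encodes Clever-1, was at 235, 245, 248 and 237 TPM in the WT libraries and 271, 193, 639.5 and 374 TPM in the WT inflamed libraries and did not pass, and in KO it was at 5.88 ± 0.658 TPM at steady state and at 7.45 ± 1.53 TPM after OVA. The Stab1 level thus matched the genotype labels. Of the sort markers, Pecam1 (CD31) was at 851, 863, 845 and 847 TPM in the WT libraries and 1011, 308, 1157 and 972 TPM in the WT inflamed libraries, and Pdpn (podoplanin) at 76.4, 69.9, 76.9 and 76 TPM in the WT libraries and 147, 89.7, 119.7 and 127 TPM in the WT inflamed libraries. Ptprc (CD45), the marker of leukocytes sorted against, was at 2.84, 0.778, 1.06 and 1.69 TPM in the WT libraries and 0.786, 0.0225, 1.93 and 1.1 TPM in the WT inflamed libraries. In two-sided exact permutation tests of the TPM of these 7 genes, 4 libraries against 4, Pdpn reached p = 0.0286, which is the smallest p this design allows, with the inflamed libraries higher without overlap, and an adjusted p of 0.2 over the 7 genes. The other 6 had exact p of 0.0857 (Lyve1) to 1 (Pecam1). Cldn5, an endothelial tight junction protein, was at 1202, 1228, 1359.8 and 1077 TPM in the WT libraries and 548, 1231, 740.3 and 677 TPM in the WT inflamed libraries and did not pass.

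Genes of lymph node sinus LEC subsets split. Of 27 tested, 3 passed higher (Ccl20, Kcnj8 and Esam) and 8 lower, beside 1.99% and 1.97% of all genes. The counts were 5 higher and 7 lower without WT inflamed replicate 2, beside 5.84% and 2.97%, and the median of the list went from -0.20 to 0.20. Marco, the scavenger receptor of medullary sinus LECs and of macrophages (chr1:120474538-120505024), was among the 5 genes with the largest fall in TPM. It stood at 5792, 5941, 5596 and 5531 TPM in the WT libraries and 863, 1061, 1526 and 1784 TPM in the WT inflamed libraries, 4.37-fold lower on the means (log2 fold change -2.18 ± 0.22 (SE), limma adjusted p = 9.95e-04), and both groups were well apart. Clec4g, the lectin LSECtin (chr8:3707066-3720695), fell from 527, 494, 482 and 448 TPM to 87.5, 131, 89.5 and 109.9 TPM (log2 fold change -2.23 ± 0.16 (SE), limma adjusted p = 2.43e-04), again with no overlap and little spread. Fcgr2b, the inhibitory Fc receptor of sinus endothelium and B cells, was at 109, 93.2, 60.9 and 85.3 TPM in the WT libraries and 40.5, 42.6, 37.8 and 30.7 TPM in the WT inflamed libraries (log2 fold change -1.16 ± 0.21 (SE), limma adjusted p = 0.0135), a call lost without WT replicate 1, 2 or 4 (adjusted p up to 0.0653) and after median-ratio rescaling. Over the list of scavenger and lectin receptors, 5 of 22 passed lower and 0 higher, beside 1.97% of all genes lower, and the summed level of the list was 8901 to 9412 TPM in WT and 3257 to 5439 TPM in WT inflamed libraries.

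The lectins of the Cd209 cluster, relatives of human DC-SIGN that in mice mark sinus-lining cells and macrophages of the marginal zone and medulla, were among the genes that fell furthest. Cd209b (SIGN-R1, chr8:3917655-3926841) was at 149, 204, 276 and 104 TPM in the WT libraries and 14.5, 6.58, 9.95 and 14.6 TPM in the WT inflamed libraries, 16.1-fold lower on the means (log2 fold change -3.86 ± 0.34 (SE), limma adjusted p = 7.17e-04). Cd209d was at 16.3, 15.7, 32.7 and 8.93 TPM in the WT libraries and 0.237, 0.517, 0 and 0.785 TPM in the WT inflamed libraries. Cd209f was at 4.48, 10.5, 14.7 and 7.79 TPM in the WT libraries and 0.237, 0.621, 0 and 0.785 TPM in the WT inflamed libraries, and Cd209g at 1.61, 2.41, 3.01 and 4.43 TPM in the WT libraries and 0, 0, 0.609 and 0 TPM in the WT inflamed libraries. Each was lower in every inflamed library than in any WT library. For Cd209d, Cd209f and Cd209g the filter fixed this separation in advance. They were under 1 TPM in all 4 inflamed libraries and were tested only through the WT libraries. Of the 4 genes, 3 were listed at 0 in at least 1 inflamed library, and reads may be shared among these copies.

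Of 18 tested macrophage and monocyte markers, 9 passed lower and 1 (Cd14) higher, beside 1.97% and 1.99% of all genes, with a median of -1.43. The lower count was 11 without WT inflamed replicate 2, beside 2.97% of all genes. The summed level of all 22 markers in the table was 576 to 1484 TPM in WT and 305 to 362 TPM in WT inflamed libraries, with WT replicate 3 the highest at 1484 TPM, and none was listed at 0 in all inflamed libraries. Lyz2, the lysozyme of myeloid cells, was at 329.7, 423, 845 and 282 TPM in the WT libraries and 63, 59.6, 46.2 and 41.6 TPM in the WT inflamed libraries (log2 fold change -3.02 ± 0.32 (SE), limma adjusted p = 0.00148). Lyz1, a near copy that may share its reads, was at 42.6, 45.8, 70.9 and 30.3 TPM in the WT libraries and 9.07, 3.74, 3.47 and 3.85 TPM in the WT inflamed libraries. WT replicate 3 was the highest library for both lysozymes. C1qa, a chain of the complement component C1q that macrophages make, was at 27.3, 31, 46.2 and 11.2 TPM in the WT libraries and 3.15, 3.4, 2.14 and 2.59 TPM in the WT inflamed libraries (log2 fold change -2.83), and C1qc at 31.9 ± 13.2 against 4.14 ± 1.55 TPM (log2 fold change -2.65). Csf1r, the receptor of macrophage colony-stimulating factor, was at 11.5, 14.4, 25.3 and 8.86 TPM in the WT libraries and 2.05, 0.264, 0.779 and 1.36 TPM in the WT inflamed libraries (log2 fold change -2.90 ± 0.37 (SE), limma adjusted p = 0.00301). Timd4, a macrophage receptor that binds phosphatidylserine, was at 46.5, 61.2, 67.3 and 24.9 TPM in the WT libraries and 5.92, 1.39, 2.56 and 6.21 TPM in the WT inflamed libraries. Folr2, which binds folate, was at 21, 24.5, 38.4 and 14.1 TPM in the WT libraries and 2.14, 2.07, 2.44 and 1.96 TPM in the WT inflamed libraries. Cbr2, a carbonyl reductase, was at 15.2, 22.9, 33 and 9.87 TPM in the WT libraries and 0.712, 2.79, 0.609 and 0 TPM in the WT inflamed libraries. All of these were lower in every inflamed library than in any WT library and passed in every alternative. Bpifb2, of the lipid-binding BPI fold family, fell from 11.4, 14.1, 20.2 and 7.06 TPM to 0, 0.419, 0.436 and 0 TPM. Its neighbour Bpifb3 fell from 5.86, 13.8, 18.1 and 6.49 TPM to 0.124, 0, 0 and 0 TPM. WT replicate 3 was again the highest library for both. Bpifb2 and Bpifb3 were under 1 TPM in all inflamed libraries and were tested only through the WT libraries, so their groups could not overlap. In these bulk libraries, fewer cells of a type and less RNA per cell cannot be told apart, and the part that macrophages in the sort take in the fall of the sinus, lectin and MHC class II genes was not tested.

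MHC class II genes present antigen to CD4+ T cells. Of 8 tested genes 6 passed lower and 0 higher, beside 1.97% and 1.99% of all genes (median -1.34). The same number passed lower without WT inflamed replicate 2, beside 2.97% of all genes. After median-ratio rescaling 4 passed lower, beside 216 of all 12031 genes tested. Cd74, the invariant chain and the most abundant of them, was at 1698, 1868, 1859.5 and 2103 TPM in the WT libraries and 795, 857, 853 and 709 TPM in the WT inflamed libraries (log2 fold change -1.23 ± 0.13 (SE), limma adjusted p = 0.00119). H2-Aa was at 132, 131, 154 and 135 TPM in the WT libraries and 34.2, 25, 51.5 and 23.2 TPM in the WT inflamed libraries (log2 fold change -2.08 ± 0.24 (SE), limma adjusted p = 0.00227). H2-Ab1 was at 161, 179, 199 and 172 TPM in the WT libraries and 52.4, 65.9, 78.8 and 50.7 TPM in the WT inflamed libraries (log2 fold change -1.52 ± 0.18 (SE), limma adjusted p = 0.00214) and H2-Eb1 at 57.9 ± 2.83 against 22 ± 10.3 TPM. The 4 inflamed libraries lay together below the WT libraries for each, with replicate 2 among them. H2-Eb1 lost its call without any of the WT replicates or WT inflamed replicate 1 (adjusted p up to 0.0736), and H2-Oa, a subunit of the H2-O modulator of peptide loading, when any 1 library other than WT inflamed replicate 2 was left out (adjusted p up to 0.126). The summed B cell markers were 80 to 107 TPM in WT and 45.5 to 65.6 TPM in WT inflamed libraries, and those of dendritic cells 502 to 568 TPM in WT and 355 to 625 TPM in WT inflamed libraries, with Itgax (CD11c), Cd209a and Ccl17 listed at 0 in all inflamed libraries. Irf8 alone gave 327 to 376 TPM of the dendritic cell sum in WT and 230 to 403 TPM in WT inflamed libraries. Of the 15 dendritic cell markers, 6 were under 1 TPM in all 8 libraries. Of 24 genes of MHC class I, peptide loading and the immunoproteasome 0 passed with limma and 6 had an unadjusted p below 0.05. B2m was at 9828 ± 2088 and 8839 ± 904 TPM and H2-D1 at 9521 ± 663 and 7956 ± 387 TPM. H2-K1, at 6958, 7309, 7128 and 7034 TPM in the WT libraries and 4675, 4826, 4990.4 and 5151 TPM in the WT inflamed libraries, was lower in every inflamed library by less than the fold threshold (log2 fold change -0.53, limma adjusted p = 0.0208).

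Markers of other cells the sort could hold moved in part. Of 6 tested erythroid and platelet markers 3 passed lower and 0 higher, beside 1.97% and 1.99% of all genes. The summed level of all 12 markers in the table was 1148 to 1530.4 TPM in WT and 685 to 1491 TPM in WT inflamed libraries. Itga2b alone gave 652 to 812 TPM in WT and 570 to 1435 TPM in WT inflamed libraries, so these sums do not describe the other markers. Hba-a1 was at 357, 466, 229.7 and 319 TPM in the WT libraries and 47.7, 73.5, 1.83 and 25.9 TPM in the WT inflamed libraries (log2 fold change -3.86 ± 0.87 (SE), limma adjusted p = 0.0341), and Hbb-b2 at 45.7, 41.9, 19.5 and 53.5 TPM in WT and was listed at 0 in all 4 inflamed libraries (limma adjusted p = 5.63e-05). No inflamed library reached the WT range for either globin. For Hbb-b2 the filter fixed this, because the gene was tested only through the WT libraries. The Hba-a1 call was lost without any of the WT replicates or WT inflamed replicate 1 or 4 (adjusted p up to 0.112), and globin copies share reads. Alas2, of haem synthesis in red cells, was at 2.95, 3.05, 1.84 and 4.28 TPM in the WT libraries and 0.57, 1.22, 0.187 and 0 TPM in the WT inflamed libraries, and lost its call without 6 of the libraries (all but WT replicate 3 and WT inflamed replicate 2, adjusted p up to 0.0754). Pf4, platelet factor 4, which some tissue macrophages also make, was at 149, 169, 131 and 166 TPM in the WT libraries and 20.4, 31.5, 14.3 and 18.6 TPM in the WT inflamed libraries (log2 fold change -2.85 ± 0.23 (SE), limma adjusted p = 5.38e-04). Itga2b, an integrin of platelets that LECs of the sinus floor also carry, was at 768, 761, 812 and 652 TPM in the WT libraries and 838, 570.1, 1189.8 and 1435 TPM in the WT inflamed libraries and did not pass. Of 18 markers of blood endothelium and high endothelial venules 3 passed higher (Selp, Aqp1 and Cxcl9) and 1 lower, beside 1.99% and 1.97% of all genes. Aqp1, a water channel, rose from 198 ± 38.1 to 449.6 ± 115 TPM, a call lost without WT replicate 2, 3 or 4 or WT inflamed replicate 1, 3 or 4 (adjusted p up to 0.0747), and Cd300lg (nepmucin), of capillaries and high endothelial venules, was at 462, 386, 356 and 378 TPM in the WT libraries and 196, 153, 151 and 142 TPM in the WT inflamed libraries (log2 fold change -1.30 ± 0.15 (SE), limma adjusted p = 0.00225). The summed level of these markers was 4461 to 5217 TPM in WT and 3964 to 5867 TPM in WT inflamed libraries, and their most abundant genes, Glycam1 and Plvap, did not pass. Of 16 markers of fibroblastic reticular cells and pericytes, Dcn, a matrix proteoglycan, passed higher (141, 118, 115 and 110.0 TPM in the WT libraries and 359, 179, 186 and 290.2 TPM in the WT inflamed libraries; limma adjusted p = 0.041), a call lost when any 1 library other than WT inflamed replicate 2 was left out (adjusted p up to 0.133). Ccl19, a CCR7 ligand, was at 397, 370.3, 355 and 298 TPM in the WT libraries and 404, 244, 100.5 and 468 TPM in the WT inflamed libraries. Enpp2 (autotaxin) was at 419.5, 384, 319.8 and 479 TPM in the WT libraries and 397, 73.9, 278 and 399 TPM in the WT inflamed libraries. Their groups overlapped and neither passed. Of 11 T and NK cell markers Cd4 passed lower (8.15, 7.87, 8.32 and 4.46 TPM in the WT libraries and 0.307, 0.143, 0.503 and 1.1 TPM in the WT inflamed libraries; log2 fold change -2.44), and Thy1 did not pass. Cd247, the CD3 zeta chain, was at 127, 114, 126 and 128 TPM in the WT libraries and 61.3, 61.8, 60.8 and 67.7 TPM in the WT inflamed libraries, apart in every library but under the fold threshold (log2 fold change -0.96). Of 7 B cell markers 0 passed with limma and 1 had an unadjusted p below 0.05. Siglech, of plasmacytoid dendritic cells, fell from 5.4 ± 0.706 to 0.628 ± 0.832 TPM and Batf3, a factor of dendritic cells that other cells also make, rose from 4.63 ± 0.837 to 13.4 ± 4.7 TPM, a call lost after median-ratio rescaling (log2 fold change 1.36, adjusted p = 0.0686) and without any of the WT replicates or WT inflamed replicate 4. Ctsg, a granule protease, fell from 4.29 ± 0.315 to 0.556 ± 0.65 TPM.

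The largest changes in absolute TPM were in abundant genes. Beside Marco, the 5 largest falls were those of Mir6236, Selenop, Apoe and Rps3. Apoe, the lipid carrier, went from 2963, 2554, 2839 and 2366 TPM to 527, 1141, 586 and 663 TPM (log2 fold change -1.94 ± 0.23 (SE), limma adjusted p = 0.00231), and Selenop, which carries selenium in plasma, from 7640.1, 6594, 5263 and 9305 TPM to 3569, 2249, 3500.0 and 3766 TPM (log2 fold change -1.14 ± 0.22 (SE), limma adjusted p = 0.0193). Selenop was under the fold threshold without WT inflamed replicate 2 (log2 fold change -0.97), and the call was also lost without WT replicate 1, 2 or 4 or WT inflamed replicate 3. The entry named Mir6236 in the files fell from 7040.1 ± 925 to 2079 ± 411 TPM. The largest rises, beside Cxcl10 and Serpina3n, were those of S100a11, a calcium-binding protein (1128, 1109, 1286 and 1079 TPM in the WT libraries and 2562, 4589.5, 2482 and 2193 TPM in the WT inflamed libraries; log2 fold change 1.30), Fabp4, a fatty acid carrier of capillary endothelium and macrophages (829, 1119, 988 and 999.6 TPM in the WT libraries and 2445, 2638, 1800.1 and 1473 TPM in the WT inflamed libraries; log2 fold change 1.05), and Lgals9, galectin-9, a ligand of TIM-3 (811, 955, 1063 and 693 TPM in the WT libraries and 1765, 1802, 1867 and 1943 TPM in the WT inflamed libraries; log2 fold change 1.08). WT inflamed replicate 2 was the highest library for S100a11 and Fabp4. S100a11 did not pass after median-ratio rescaling, Fabp4 neither after it nor without WT replicate 1, 3 or 4 or WT inflamed replicate 1 or 2 (log2 fold change 0.93 without the last), and Lgals9 neither without WT replicate 4 (log2 fold change 0.97) nor after median-ratio rescaling without WT inflamed replicate 2.

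Ribosomal protein genes took a smaller share of the transcripts in 3 of the 4 inflamed libraries. They made up 7.05% to 7.76% of all TPM in WT, 3.71% to 4.13% in WT inflamed replicates 1, 3 and 4, and 8.19% in replicate 2, so that the groups overlapped only through that library. Of 85 tested ribosomal protein genes 3 passed lower, beside 1.97% of all genes, with a median of -0.57, and 21 without that library, beside 2.97%, with a median of -0.85. Rps3 fell from 3370.3, 3020.1, 3457 and 3226 TPM to 1381, 1934, 1492 and 1311 TPM (log2 fold change -1.11 ± 0.15 (SE), limma adjusted p = 0.0036), a call lost after median-ratio rescaling. Rps14 was at 1945, 1761, 1924 and 1742 TPM in the WT libraries and 789, 1965, 788 and 725 TPM in the WT inflamed libraries, and Rplp0 at 2215, 2092, 2299 and 1909 TPM in the WT libraries and 1065, 2077, 1120.2 and 1079.7 TPM in the WT inflamed libraries. WT inflamed replicate 2 was at the WT level for both and neither passed. Ribosomal protein transcripts are short, and short transcripts differed from long ones in these libraries as given above. Rps3, and Gpx4 given next, kept their calls when each library was centred by transcript length class, with or without WT inflamed replicate 2. This setting was chosen after seeing the data. The medians it removed for transcripts of up to 1000 bases were only -0.07 to -0.04 log2 units in the WT inflamed libraries. The kept calls therefore cannot decide on transcript length, and its part in these values was not tested. Gpx4, a selenoprotein that protects lipids from peroxidation and is also short, was at 1197, 1058, 1193 and 1137 TPM in the WT libraries and 385, 893, 422 and 441 TPM in the WT inflamed libraries (log2 fold change -1.18 ± 0.25 (SE), limma adjusted p = 0.0258), lost its call after median-ratio rescaling and when any 1 library other than WT inflamed replicate 2 was left out (adjusted p up to 0.0976), and was at -1.46 without that library. Small nucleolar RNA genes were among those that moved most without replicate 2. Snord118 was at 728, 693, 556 and 752 TPM in the WT libraries and 107, 466, 122 and 88.3 TPM in the WT inflamed libraries, with the log2 fold change going from -2.15 to -2.68. Snora23 and Snord49b were listed at 0 in WT inflamed replicates 1, 3 and 4 and at 6.47 and 8.62 TPM in replicate 2, against 42.3, 48.7, 38 and 73.4 TPM and 28.2, 13, 14.5 and 39.2 TPM in WT. The gene model Gm18853, at 0, 0, 4.13 and 0 TPM in the WT libraries and 21.3, 2.21, 18.9 and 14.8 TPM in the WT inflamed libraries, moved from 3.02 to 3.67, and it was the 1 passing gene whose groups overlapped. Snord118, Snord49b and Gm18853 did not pass when any of several other libraries was left out (adjusted p up to 0.152).

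Several other lists gave few calls or none, beside 1.99% of all genes higher and 1.97% lower. In the VEGF and angiopoietin list, Vegfc, the growth factor of lymphatic vessels, rose from 2.17, 1.33, 1.89 and 1.89 TPM to 5.17, 3.45, 7.74 and 5.84 TPM (log2 fold change 1.18 ± 0.24 (SE), limma adjusted p = 0.0239), a call lost when any 1 library other than WT inflamed replicate 2 was left out (adjusted p up to 0.0981). Kdr, which encodes VEGFR-2, was at 530.1, 542, 458 and 616 TPM in the WT libraries and 516, 104, 632 and 559 TPM in the WT inflamed libraries and did not pass. Angptl4, a secreted inhibitor of lipoprotein lipase, was at 237, 627, 499.6 and 201 TPM in the WT libraries and 722, 977, 895 and 829 TPM in the WT inflamed libraries. Every inflamed library of Angptl4 lay above all WT libraries, but it did not pass (limma adjusted p = 0.0697). Among complement genes C5ar1, a receptor for the anaphylatoxin C5a, rose from 0.937 ± 0.513 to 3.09 ± 0.642 TPM (log2 fold change 1.10), a call lost after median-ratio rescaling (log2 fold change 1.14, adjusted p = 0.0555) and without WT replicate 1, 2 or 4 or WT inflamed replicate 1, 3 or 4, whereas the abundant C3 and Cfb did not pass (1141 ± 79.7 against 1114 ± 467 TPM and 4783 ± 112 against 3820.1 ± 1338 TPM). In interleukin-1 and gp130 signalling 1 of 30 passed, and Socs3, a feedback inhibitor, was at 290.4 ± 14.7 and 286 ± 72.5 TPM. No member passed among 30 genes of ribosome biogenesis, 30 of oxidative phosphorylation, 26 of glycolysis and hypoxia, 25 immediate early genes or 15 clock genes with limma, where 0, 4, 10, 9 and 3 members had an unadjusted p below 0.05.

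The same injection in KO mice gave a comparison with its own controls. There 780 genes passed higher and 372 lower among 12161 tested, 6.41% and 3.06%, and none of the 4 KO inflamed libraries was low in long transcripts as WT inflamed replicate 2 was. Of the 239 genes higher in WT, 181 were also higher in KO, which is 75.7% of the WT genes and 23.2% of the KO genes. Of the 237 lower in WT, 151 were also lower in KO, 63.7% and 40.6%. In KO, 235 of 236 tested WT-higher genes and 228 of 229 tested WT-lower genes had the same sign, with median log2 fold changes of 1.40 and -1.23, beside 1.50 and -1.42 in WT. The median of all genes was 0.24 in KO. Values of single genes in WT and KO were 4.68 and 4.43 for Fgf23, 4.05 and 4.04 for Itih4, 2.53 and 1.78 for Birc5, and -2.23 and -2.52 for Clec4g. For Car4 they were 6.21 and 4.15, for Lcn2 3.73 and 2.28, for Gpx3 4.35 and 2.72, for Isg15 1.61 and 0.59, and for Lyz2 -3.02 and -1.77. Fcgr2b had opposite signs, -1.16 in WT and 0.25 in KO, where it did not pass (limma adjusted p = 0.321). At steady state it stood at 87 ± 19.9 TPM in WT and at 23.4 ± 4.15 TPM in KO.

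A test of the difference itself, the interaction of genotype and OVA over all 16 libraries, called 0 of 12684 genes with limma in either direction. Of these, 542 had an unadjusted p below 0.05, and the smallest adjusted p was 0.0573. The median of the WT minus KO differences over all genes was -0.23. Single differences were 2.06 ± 0.83 (SE) for Car4, 1.63 ± 0.49 for Gpx3, 1.45 ± 0.33 for Lcn2 and -1.40 ± 0.31 for Fcgr2b, with limma adjusted p of 0.668, 0.668, 0.485 and 0.485. Without WT inflamed replicate 2 the same limma test called 6 genes, 1 with the WT change above the KO change (Rnase1) and 5 with it below (Nt5dc2, Pttg1, Snord118, Supt16 and Tmem218), which were named after their values were seen. Rnase1 was not tested in the WT comparison without that library. Its difference of 1.51 (limma adjusted p = 0.0465) had the size of its KO change, -1.51, so it shows no rise in WT.

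**Figure D5:**
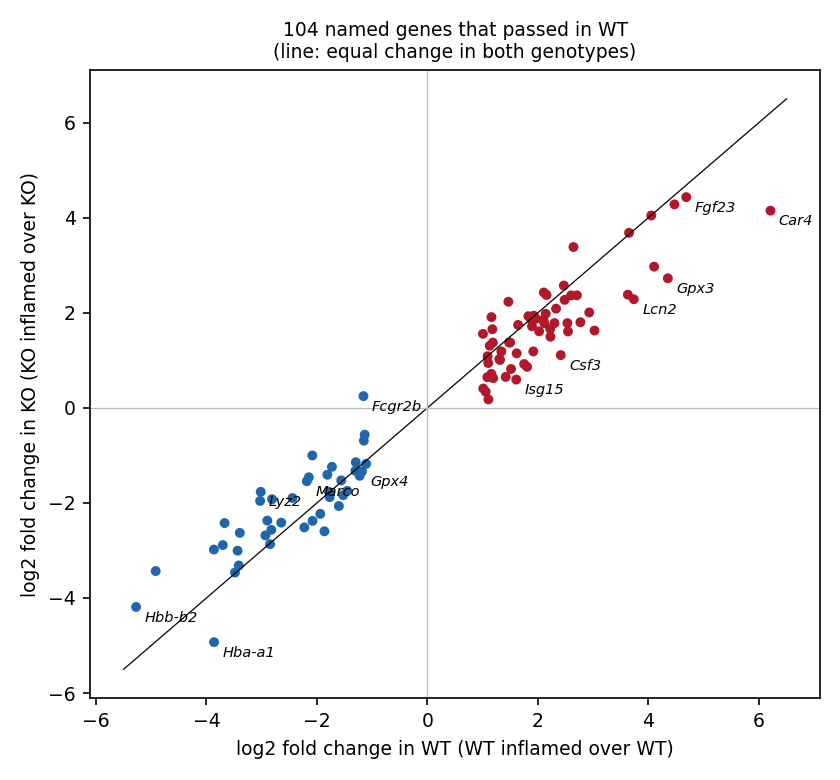
Each point is 1 of 104 named genes that passed in WT and were tested in KO, with its log2 fold change in WT on the x axis and in KO on the y axis, red where it was higher and blue where it was lower in WT. The line marks equal change, 103 of the 104 genes have the same sign in both genotypes, and Fcgr2b, which did not pass in KO, is the exception.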

How the data were processed

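RNA of sorted lymph node LECs was read on an Illumina HiSeq instrument after SMART-Seq v4 and Nextera XT library preparation. Levels are TPM, which the authors deposited by gene with every library scaled to the same total. Per the labels the reads were aligned to mm10 with STAR 2.5.2b, with Subread and limma also named, whereas the methods of the study name STAR, salmon and DESeq2. TPM keep no depth, so depth is unknown and precision rests on the spread of 4 libraries. The 8 WT columns were used here, and the 8 KO columns for 1 comparison. Repeated steady-state columns and 7 deposited tables holding the authors' own comparisons were not used. Among the gene names of each file, 26 that a spreadsheet had changed into dates were left out, and 24946 remained.

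Values were taken as log2(TPM + 1). Genes that 4 or more libraries held at 1 TPM or above were fitted with limma 3.58.1 in R 4.3.3 (eBayes with trend, no replicate term) and adjusted after Benjamini and Hochberg. Calls needed an adjusted p no higher than 0.05 and a log2 change at or beyond 1 in either direction, the thresholds of the study. The fit was tested on simulated data with known changes. These data were drawn from the WT means and spreads, without a library like WT inflamed replicate 2. Exact permutation tests served for single values. Transcript lengths came from GENCODE (94.6% of tested genes), positions and promoters from RefSeq on GRCm38.p6, matched by symbol or unique older symbol (79.3% of tested genes had a promoter). Python 3.11.15 with pandas 2.3.3 wrote the tables and matplotlib 3.10.9 drew the figures. The members and gene lists were chosen with earlier results of these data known. Genes were named by rule: the 15 highest and 15 lowest log2 fold changes among passing genes whose libraries did not overlap and with a group mean of at least 5 TPM (gene models without a name left out), the 5 largest rises and falls in TPM, up to 5 passing members of each list described (and up to 3 abundant ones where fewer passed), 7 sort and identity markers, and the 6 that moved most without WT inflamed replicate 2. Kcnj8, Cd14 and the interaction genes were named outside it. Alternatives were other pseudocounts, filters, scalings and fits, a replicate term, no fold threshold and leaving out each library. Centring by length class, and quantile normalization without WT inflamed replicate 2, were chosen after seeing the data. Some genes that the rule names are not reported here.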

Additional observations from a re-analysis of the deposited data

Results flagged for a closer look

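Among the 175 named genes, each group of 4 libraries was checked for a library far from the other 3, by Dixon's criterion. Of the 350 groups, 35 held such a library, and in 19 of the 35 it was WT inflamed replicate 2. Chance flags about 1 in 20 groups of unselected values. That rate does not apply as it stands here, because 6 of the genes were named for how far they moved without WT inflamed replicate 2, and a group with 3 libraries at 0 and 1 above it always passes the criterion.

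WT inflamed replicate 2 lay far below the other 3 inflamed libraries, whose range is in brackets, for Calr 1619 TPM (3060.0 to 3289), Cd55 613 TPM (1525 to 1699.9), F11r 554 TPM (1156 to 1229), Ifit1 15.9 TPM (62.6 to 71.9), Igtp 264 TPM (674 to 677), Jak1 415 TPM (1412 to 1535), Jam3 499 TPM (997 to 1073), Prox1 16.8 TPM (82.2 to 95.3), Serpina3n 656 TPM (1156 to 1247), Timp3 216 TPM (1034 to 1158). It lay far above them for Gpx1 2602 TPM (1201 to 1349), Gpx4 893 TPM (385 to 441), Mt1 1941 TPM (407 to 628), Rplp0 2077 TPM (1065 to 1120.2), Rps14 1965 TPM (725 to 789), S100a11 4589.5 TPM (2193 to 2562), Snora23 6.47 TPM (0 to 0), Snord118 466 TPM (88.3 to 122), Snord49b 8.62 TPM (0 to 0).

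In the other 16 groups the library set apart was another one. WT replicate 1 was apart for Ccl9 5.14 TPM (3.86 to 3.98), Wfdc17 11.2 TPM (8.71 to 9.12). WT replicate 2 was apart for Pdpn 69.9 TPM (76 to 76.9). WT replicate 3 was apart for Gm18853 4.13 TPM (0 to 0), H2-Aa 154 TPM (131 to 135). WT replicate 4 was apart for Cd4 4.46 TPM (7.87 to 8.32), Cdc45 2.94 TPM (4.35 to 4.51), Saa3 1.88 TPM (0.522 to 0.677). WT inflamed replicate 1 was apart for Bpifb3 0.124 TPM (0 to 0), Ccl7 185 TPM (76.6 to 94.1), Lyz1 9.07 TPM (3.47 to 3.85). WT inflamed replicate 3 was apart for Cd209g 0.609 TPM (0 to 0), Siglech 1.87 TPM (0.0784 to 0.341). WT inflamed replicate 4 was apart for Car4 381 TPM (302 to 303), Cd247 67.7 TPM (60.8 to 61.8), Lcn2 256 TPM (449 to 468).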

How the results depend on the processing

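Depth is unknown, and 4 libraries a group limit the precision. With all 8 libraries 239 genes were higher and 237 lower. Leaving out 1 library gave 109 to 697 higher and 98 to 355 lower genes. A pseudocount of 5 TPM gave 133 and 129, a filter at 5 TPM 157 higher, array weights 714 and 371, a fit over all 16 libraries 383 higher, and centring each library by transcript length class 359 higher. Without WT inflamed replicate 2, median-ratio rescaling gave 458 and 540, quantile normalization 480 and 489, and length centring 479 and 464. Apart from the replicate block, the other settings kept both counts within 1.5 times. The methods name no pairing by replicate number. The deviations of same-numbered WT and WT inflamed libraries correlated across genes at 0.011, 0.0193, -0.208 and 0.124. Of these, 1 of 4 was over 0.1. Differently numbered libraries reached 0.337 (WT replicate 3 with WT inflamed replicate 2), so these values can neither show nor exclude pairing. With the replicate block 131 genes were higher and 134 lower. In KO (780 and 372), dropping the fold threshold gave 5341 and 1989, a pseudocount of 5 TPM 347 and 192, median-ratio rescaling 418 and 593, quantile normalization 447 higher and length centring 414 higher, and leaving out 1 library gave 684 to 900 and 306 to 399. The interaction test (0 and 0) called, with the WT change above and below the KO change, 0 and 1 with a pseudocount of 5 TPM, 2 and 0 with no filter, 1 and 1 after median-ratio rescaling, 0 and 1 after quantile normalization, 1 and 0 without trend, 3 and 8 with array weights, 1 and 1 with length centring, and 0 to 1 and 0 to 5 when 1 library was left out. Without WT inflamed replicate 2 it called 1 and 2 after median-ratio rescaling, 0 and 2 after quantile normalization and 2 and 5 with length centring. The causes were not tested. No named gene that passed changed sign in any setting. Of 175 named genes, 4 lost and 14 gained a call without WT inflamed replicate 2, and 29 to 39 lost one without any other library.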
